A study of Homo sapiens with 3 samples.

Results

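The 10 genes described here encode the enzymes that make, recycle and use the thiol antioxidants glutathione and thioredoxin: GCLC, GCLM, GSS, GSR, TXN, TXNRD1, PRDX1, SRXN1, GPX2 and GPX4. They were taken by gene symbol from 19775 genes with a single-gene probe set on the arrays, and 19 probe sets belonged to them. The choice of genes was made with earlier results of these data known. No probe set was shared between one of them and another gene. Total RNA came from NCI-H1650, an established human lung cancer line, and was read on 3 one-colour Affymetrix arrays with 1 array per group. The groups were control cells, cells exposed to 40 µM colossolactone H (the labels' colo H, a fungal triterpenoid) for 12 h, and cells exposed to 40 µM for 24 h. All groups were the same line, and neither a vehicle nor the control's collection time is in the labels used here. With 1 array per group no difference below has a replicate check, a p-value or an error, and both treated arrays are compared with the same control array. RNA of whole cultures cannot tell fewer expressing cells from less RNA per cell.

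Glutathione is a tripeptide built in sequence by glutamate-cysteine ligase and glutathione synthetase, and the oxidised form is returned to the reduced form by glutathione reductase at the expense of NADPH. Thioredoxin is a small protein that reduces disulfides in other proteins, and thioredoxin reductase, a selenoprotein, returns it to its reduced state, also with NADPH. Peroxiredoxins and glutathione peroxidases spend these thiols on peroxides. Many of these genes are known targets of NRF2, a transcription factor that is held down by KEAP1 and binds antioxidant response elements in DNA.

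The promoter windows are shown first because that element is a known link between several of these genes. RefSeq windows of 300 bases, 250 before and 50 after the start site (build GRCh38.p14), were at hand for 7 of the 10 genes: GCLC, GCLM, TXN, TXNRD1, SRXN1, GPX2 and GPX4, while GSS, GSR and PRDX1 were not matched. The core of the element, TGACNNNGC, was searched on both strands, where the other strand reads GCNNNGTCA. It was found in 4 of 10 windows, belonging to GCLM, TXNRD1 (both of its windows) and GPX2, and in 13.3% of all 35116 windows. The matches before the start site are given 5′ to 3′ along the gene with 15 flanking bases, and capitals mark the 9 bases of the core.
GCLM, chr1:93909441-93909479, minus strand, core 34 to 26 bases before the start: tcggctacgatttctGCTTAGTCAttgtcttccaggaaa
TXNRD1, first window, chr12:104215665-104215703, plus strand, core 99 to 91 bases before the start: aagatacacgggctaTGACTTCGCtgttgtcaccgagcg
TXNRD1, second window, chr12:104286915-104286953, plus strand, core 102 to 94 bases before the start: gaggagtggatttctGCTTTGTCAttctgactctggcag
GPX2, chr14:64942844-64942882, minus strand, core 122 to 114 bases before the start: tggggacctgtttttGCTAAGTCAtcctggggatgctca
A further match in the first TXNRD1 window ran across the start site and is not shown. The windows of GCLC, TXN, SRXN1 and GPX4 held no match to these letters, which says nothing of sequence outside them.

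Signal above the floor, the median of all values at 61.4 signal units, was found for 9 of the 10 genes, and for 15 of their 19 probe sets on all 3 arrays. GPX2 was the gene that was not measured. Across those 15 probe sets the control array gave the lowest signal for 14, and the highest signal lay at 24 h for 10 and at 12 h for 5.

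**Figure D1:**
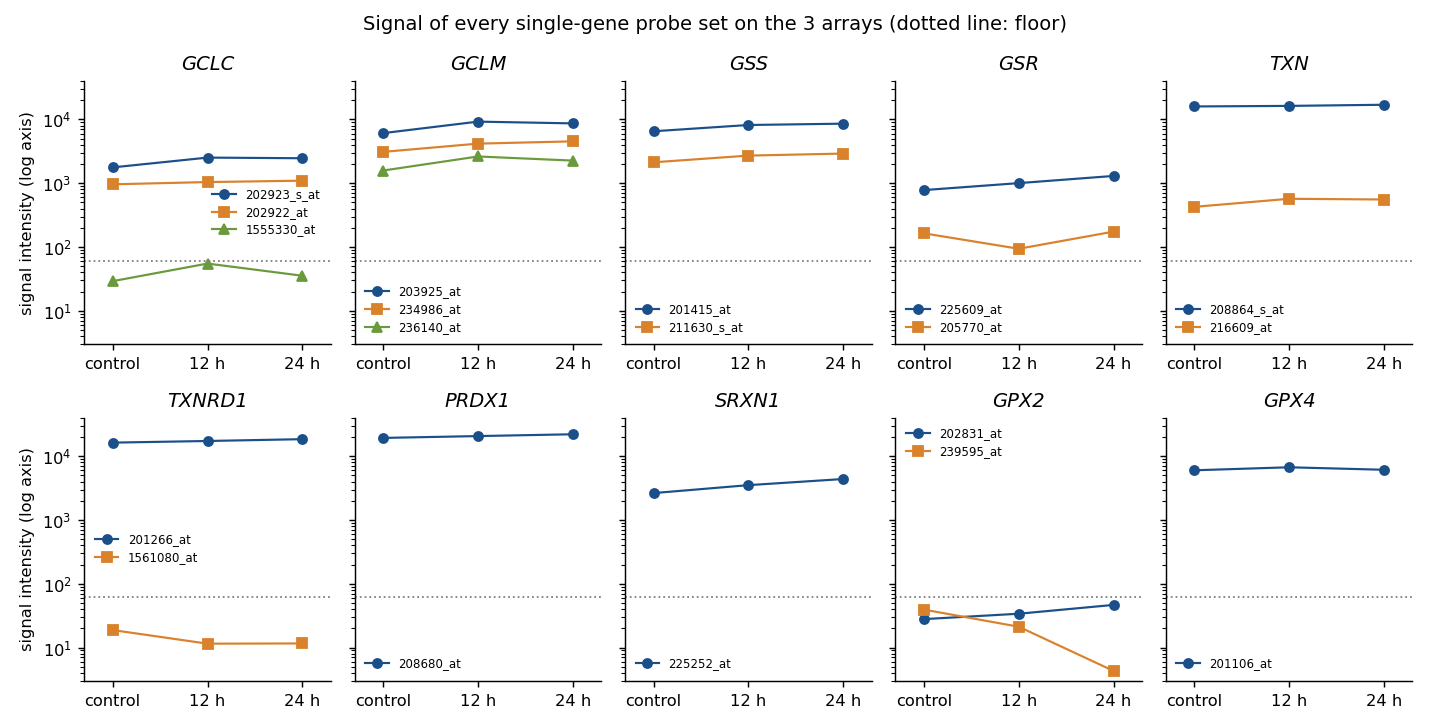
Signal intensity (log axis) of every single-gene probe set of the 10 genes on the control, 12 h and 24 h arrays, 1 point per array, with the floor of 61.4 as a dotted line. GCLM, GSS and SRXN1 are lowest on the control array in each of their probe sets, and both GPX2 probe sets lie under the floor on all 3 arrays.

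Glutathione synthesis genes were higher at both times, each represented below by its brightest probe set unless another is named. GCLM (Entrez gene 2730), the modifier subunit of glutamate-cysteine ligase that raises the activity of the catalytic subunit, gave 6101 signal units on the control array, 9243 at 12 h and 8676 at 24 h. Those signals are 1.51-fold and 1.42-fold those of the control, or log2 differences of 0.60 and 0.51. Of 12351 measured genes, 3.21% were as high as GCLM or higher at 12 h, and 5.92% at 24 h. The other probe sets of GCLM moved likewise. Probe set 234986_at gave 3102 on the control array and 4178 and 4535 on the arrays of 12 h and 24 h. Probe set 236140_at gave 1581, 2627 and 2265. All 3 probe sets were above the control on both treated arrays, with log2 differences from 0.43 to 0.73 at 12 h and from 0.51 to 0.55 at 24 h, while they did not agree on which treated array was the higher.

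GCLC (Entrez gene 2729) encodes the catalytic subunit, the rate-limiting enzyme of the pathway. Its brightest probe set, 202923_s_at, gave 1772 signal units on the control array, 2523 at 12 h and 2466 at 24 h, log2 differences of 0.51 and 0.48. The suffix _s marks a probe set that can match several transcripts. The transcript-specific probe set 202922_at gave 962.6, 1044 and 1097 signal units, differences of 0.12 and 0.19. Both were lowest in the control, so the direction was shared, but the size of the GCLC difference depends on which probe set is read. The third GCLC probe set, 1555330_at, was under the floor on every array.

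GSS (Entrez gene 2937), glutathione synthetase, completes the tripeptide. Its probe sets gave similar differences. Probe set 201415_at stood at 6527, 8185 and 8586 signal units and 211630_s_at at 2129, 2712 and 2919. The log2 differences were 0.33 and 0.35 at 12 h and 0.40 and 0.46 at 24 h. Both probe sets placed the 3 arrays in the same order, lowest in the control and highest at 24 h.

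GSR (Entrez gene 2936), the glutathione reductase, was a case where probe sets disagreed. The brighter one, 225609_at, gave 781 signal units on the control array, 1005 at 12 h and 1302 at 24 h, 1.29-fold and 1.67-fold the control. A share of 1.92% of measured genes was as high or higher at 24 h. The dimmer one, 205770_at, gave 164.1, 94.0 and 174.5, which is below the control at 12 h (-0.80) and 0.09 above it at 24 h. Both probe sets thus had their highest signal at 24 h, and they pointed in opposite directions at 12 h.

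In the thioredoxin system the reductant and its reductase were bright in the control and differed little. TXN (Entrez gene 7295), thioredoxin itself, gave 15981, 16309 and 16996 signal units with probe set 208864_s_at, log2 differences of 0.03 and 0.09. A dimmer transcript-specific probe set, 216609_at, gave 426.7, 571 and 556.1, differences of 0.42 and 0.38. TXNRD1 (Entrez gene 7296), the cytosolic thioredoxin reductase, gave 16288, 17281 and 18456 signal units, which is 1.06-fold and 1.13-fold the control. Its other probe set, 1561080_at, was under the floor on every array.

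PRDX1 (Entrez gene 5052), a peroxiredoxin that reduces hydrogen peroxide with electrons from thioredoxin, followed the same small steps with its 1 probe set. It stood at 19306 signal units on the control array, 20629 at 12 h and 22024 at 24 h, log2 differences of 0.10 and 0.19. TXN, TXNRD1 and PRDX1 each had their lowest signal in the control and their highest at 24 h. Their differences are read against 197 measured genes with mean signal over 15000, a group chosen after these values were seen. Of these genes 66.5% exceeded their control signal after 12 h and 80.2% after 24 h, with medians of 0.04 and 0.07 and 95th percentiles of 0.26 and 0.29. The 3 genes lay below those percentiles at both times.

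SRXN1 (Entrez gene 140809), sulfiredoxin, restores peroxiredoxins whose catalytic cysteine has been overoxidised. Its 1 probe set gave 2636 signal units on the control array, 3510 at 12 h and 4382 at 24 h. These are 1.33-fold and 1.66-fold the control, log2 differences of 0.41 and 0.73, and 1.99% of measured genes were as high or higher at 24 h. PRDX1, the protein that sulfiredoxin repairs, was at 0.19 on the same array. SRXN1 had the largest mean difference of the 9 measured genes. The genes nearest to its pair of differences, among 11308 above the floor on all 3 arrays, were RTCA at 0.41 and 0.72, CLU at 0.40 and 0.72 and CHKB-DT at 0.40 and 0.76. This likeness rests on 3 arrays, 47 genes lay within a distance of 0.1, and under alternative settings the 12 h value of RTCA was as low as 0.045 and that of CLU 0.00, and their 24 h values 0.13 and 0.27.

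Of the glutathione peroxidases 1 was measured. GPX4 (Entrez gene 2879), the selenoenzyme that reduces lipid hydroperoxides in membranes and restrains ferroptosis, gave 6003 signal units on the control array, 6691 at 12 h and 6115 at 24 h. Its differences of 0.16 and 0.03 were exceeded or equalled by 27.2% and 44.9% of measured genes. GPX2 (Entrez gene 2877), an epithelial glutathione peroxidase, gave 27.9, 33.9 and 46.6 signal units with 202831_at and 39.3, 21.2 and 4.3 with 239595_at. All 6 values lay under the floor and the 2 probe sets ran in opposite directions, so no level or change is given for it.

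**Figure D2:**
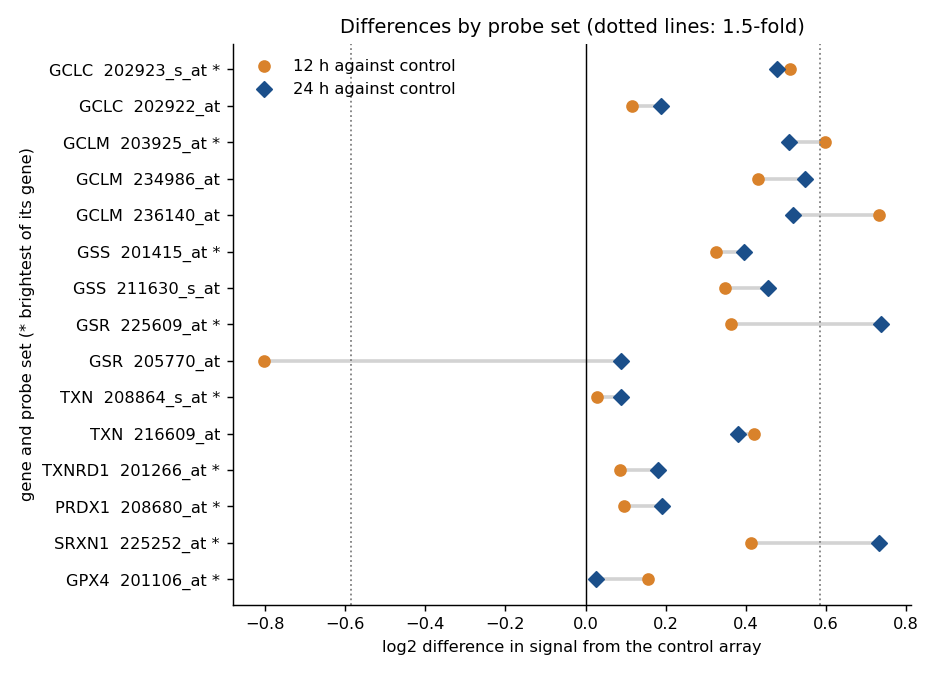
Log2 difference in signal from the control array for the 15 probe sets above the floor on all 3 arrays, at 12 h (circles) and 24 h (diamonds), with 1.5-fold as dotted lines and a star at the brightest probe set of each gene. At 12 h 14 of the 15 lie above 0, the exception being GSR probe set 205770_at, and at 24 h all 15 do. Several belong to the same gene. Of all measured genes 50.2% were higher at 12 h and 48.8% at 24 h.

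Set side by side, the 9 measured genes were all higher than the control at 12 h, with log2 differences from 0.03 to 0.60, except that TXN was at -0.03 after quantile normalization and GSR at -0.22 by the median of its probe sets. At 24 h they were again all higher, from 0.03 to 0.74. They stayed above 0 under the alternative settings, though only just for TXN, at 0.003 as its lowest value, and GPX4, at 0.009. Among all measured genes 50.2% were higher at 12 h and 48.8% at 24 h. The median of the 9 was 0.33 at 12 h and 0.40 at 24 h, beside medians of 0.00 and 0.00 over all measured genes. Both comparisons share the 1 control array and are not independent of each other. The genes were chosen with earlier results of these data known, so their shared direction is not independent support.

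Few of the genes passed 1.5-fold, a log2 difference of 0.585. At 12 h GCLM was the 1 gene of 9 past it, where 3.41% of all measured genes were 1.5-fold or more higher and 1.53% of those with mean signal over 1000. GCLM was barely past it, and fell under it with quantile normalization or cyclic loess, at 0.58 in both. At 24 h GSR and SRXN1 were past it, 2 of 9, where 4.09% of all measured genes and 2.26% of those with mean signal over 1000 were. For GSR the median over its probe sets was 0.41 at 24 h, under 1.5-fold. None of the 9 was lower by 1.5-fold, where 3.1% and 4.91% of all measured genes were. None reached 2-fold higher at either time, where 0.445% and 0.591% of all measured genes did.

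Between the treated arrays GSR and SRXN1 differed most. GSR was 1.30-fold and SRXN1 1.25-fold higher at 24 h than at 12 h, log2 differences of 0.37 and 0.32, which 5.13% and 6.84% of measured genes equalled or passed. GSS, TXN, TXNRD1 and PRDX1 differed by 0.06 to 0.10. The 3 genes with lower signal at 24 h than at 12 h were GCLC at -0.03, GCLM at -0.09 and GPX4 at -0.13, although for GCLC the transcript-specific probe set gave 0.07 and for TXN it gave -0.04. For GCLM probe set 234986_at gave 0.12 and 236140_at gave -0.21. None of the 9 passed 1.5-fold higher or lower, where 1.46% and 1.91% of all measured genes did. By their brightest probe sets, then, the ligase subunits were no higher at 24 h than at 12 h, and the reductase GSR and the repair enzyme SRXN1 were.

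How far probe sets of 1 gene differ gives a scale for these values. Over 5636 genes with at least 2 probe sets of their own past the floor on every array, the 2 brightest differed by a median of 0.19 in their 12 h difference and 0.22 in their 24 h difference, and had the same sign for 63.3% and 62.6% of genes. The differences of GCLM, GSS and SRXN1 exceed these medians at both times, and GCLC and GSR do so with their brightest probe sets. Those of TXN, TXNRD1, PRDX1 and GPX4 do not with their brightest probe sets. A median is a low bar, since about 1 gene in 10 disagreed by more than 0.53 at 12 h and 0.66 at 24 h. By brightest probe sets, GCLM passed that wider value at 12 h only, and GSR and SRXN1 at 24 h only. GSS and GCLC stayed within it at both times.

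**Figure D3:**
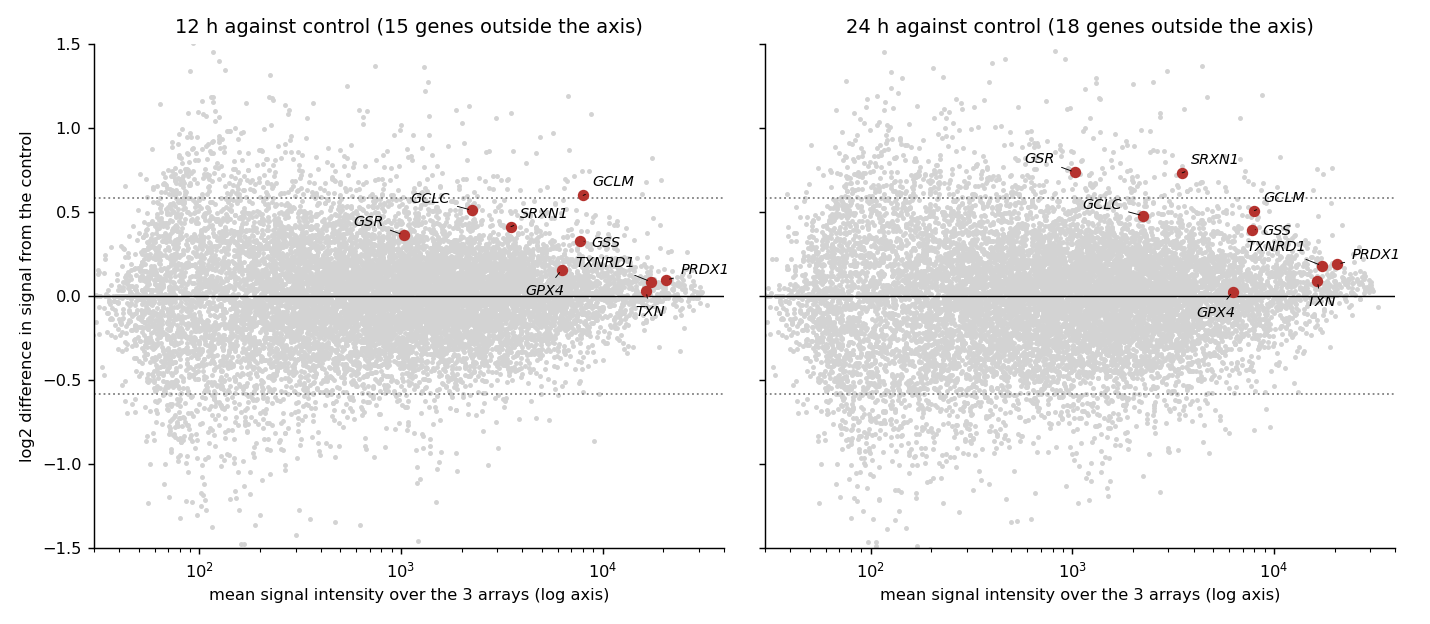
Log2 difference from the control array (left 12 h, right 24 h) against the mean signal over the 3 arrays (log axis) for 12351 measured genes (grey), with the 9 measured enzymes in red and 1.5-fold as dotted lines. GSR and SRXN1 stand above the upper line at 24 h, and TXN, TXNRD1 and PRDX1 lie among the brightest genes, which spread little around 0.

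As deposited, the arrays had the same trimmed mean signal of 500.06, and between 27227 and 27388 of 54675 probe sets lay above the floor on each. The floor is the median of all values, which fixes the total above it. Neither value is therefore a check on how alike the arrays are. As a measure of intact RNA, the 3′ signal of ACTB over its 5′ signal was 4.95 on the control array, 5.38 at 12 h and 6.55 at 24 h. The same ratio for GAPDH was 1.205, 1.251 and 1.237, without such a rise. The part of RNA quality in the differences was not tested. Epithelial markers fitting the line were above the floor for 8 of 8 genes on all arrays, with EPCAM at 13033 to 13754 signal units. Not all were steady, since KRT19 went from 1703 in the control to 1120 at 24 h and CLDN4 from 514.8 to 887.8. Of 6 blood cell markers on the arrays, all of leukocytes except the globin gene HBB, 1 was above the floor on all 3, CSF1R at 179.5 to 198.4 signal units. ITGAM was above it in the control (73.7) and HBB at 12 h (90.6), while PTPRC, CD3E and CD14 were under it throughout. Sums over the list were 383.5 to 400.9 signal units. Of 8 fibroblast and endothelial markers 3 were above the floor on all 3 arrays, COL1A1, COL3A1 and PECAM1. In the control they stood at 729.8, 876.9 and 137.1 signal units, and at 24 h at 495.0, 584.9 and 89.3. Summed over all 8 markers, the signals were 1861 on the control array, 1553 after 12 h and 1257 after 24 h. The part of these markers in the results was not tested.

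Genes that supply or break down glutathione contained larger differences than the enzymes themselves. In this list 17 of 20 genes were measured, its median was 0.08 at each time, and 10 were higher at 12 h and 9 at 24 h. Beside this list and those that follow, 50.2% and 48.8% of all measured genes were higher at 12 h and 24 h. The shares 1.5-fold or more higher were 3.41% and 4.09%, and those 1.5-fold or more lower 3.1% and 4.91%. SLC7A11, the cystine importer that supplies the cysteine of glutathione, gave 3579, 7016 and 6390 signal units, and its partner SLC3A2 gave 1926, 2797 and 2546. CBS and CTH make cysteine from homocysteine and stood at 1.56 and 0.56 at 12 h and at 1.65 and 0.68 at 24 h, with CTH at 0.68 at 12 h by the median of its probe sets. With the transcript-specific probe set CBS was at 0.19 at both times, so the size of its difference is uncertain. Why its probe sets differ was not tested. CHAC1, which cleaves glutathione inside the cell, was at 1.37 and 1.16. At 12 h 4 genes of the list were 1.5-fold higher, SLC7A11, CBS, CHAC1 and HAGH, a hydrolase of the glyoxalase pathway, at 0.60. GGT1, which breaks down glutathione at the cell surface, was lower, from 116.8 signal units in the control to under the floor at 12 h. At 24 h the 4 past 1.5-fold were SLC7A11, CBS, CTH and CHAC1. SLC3A2, HAGH, GGT1 and CTH are named after their values were seen, as are GSTM1, GSTT2, GPX1, PRDX2, PRDX3, PRDX6, PSTK, SEPHS2, NFE2L2 and KEAP1 in what follows.

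Enzymes that use glutathione went both ways. Of 21 transferases, which attach glutathione to other molecules, 18 were measured, with medians of 0.05 and 0.01 and 11 and 9 genes higher. GSTZ1, a maleylacetoacetate isomerase, gave 323.1, 474.9 and 468 signal units. GSTCD gave 952.6, 490.4 and 769.5, log2 differences of -0.96 and -0.31, the former -0.36 by the median of its probe sets. GSTM1 at 0.80 was the 1 transferase past 1.5-fold higher at 12 h, or 0.06 by the median of its probe sets and 0.11 under a 65th percentile floor. GSTM2 and GSTT2 were past 1.5-fold lower at 24 h, at -0.73 and -0.65, with GSTM2 under the floor on that array. GSTM genes are close in sequence, so their probe sets may share signal.

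Among other peroxidases and glutaredoxins 7 of 10 genes were measured and 6 were higher at each time, with medians of 0.30 and 0.17. GLRX, a glutaredoxin that removes glutathione from protein thiols, gave 2056 signal units on the control array, 3037 at 12 h and 3578 at 24 h. It was 1.48-fold and 1.74-fold the control, the 1 gene of the list past 1.5-fold at 24 h. GLRX2, a further glutaredoxin, was at 0.15 and 0.36, and GLRX3 at 0.34 and 0.18, the latter -0.01 as its lowest value under the alternatives. GPX1, the abundant cytosolic glutathione peroxidase, was at 0.30 and 0.17.

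Thioredoxins, peroxiredoxins and methionine sulfoxide reductases other than the 10 genes were measured for 17 of 19 genes, and none passed 1.5-fold at either time by its brightest probe set. With transcript-specific probe sets TXNDC9, named after its values were seen, was at 0.70 at 24 h in place of 0.11. The median was 0.06 at 12 h and 0.05 later, with 14 and 10 higher. PRDX2, PRDX3 and PRDX6 stood at 0.05, 0.02 and 0.07 at 12 h and at 0.05, 0.06 and 0.07 at 24 h, and under scaling alternatives PRDX3 reached -0.04 at 12 h and PRDX2 -0.02 at 24 h. MSRB1, a selenoprotein that repairs oxidised methionine, gave 1477, 1576 and 2150 signal units, a difference of 0.54 at 24 h. TXNL1, a thioredoxin-like protein, was at 0.21 and 0.37, its 12 h value reaching -0.04 under an alternative, and NXN, nucleoredoxin, at -0.35 and -0.21.

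TXNRD1, GPX2 and GPX4 are selenoproteins, which need a dedicated machinery to insert selenocysteine. Of 10 genes listed for selenoprotein synthesis all 10 were measured, with medians of 0.31 and 0.30, and 8 were higher at 12 h and 7 at 24 h. EEFSEC, the elongation factor that delivers the selenocysteine tRNA, gave 77.5, 153.2 and 179.3 signal units, close to the floor in the control. SECISBP2, which binds the selenocysteine insertion element, gave 720.2, 904.6 and 1223, with a 24 h difference of 0.76 that was 0.32 with transcript-specific probe sets. SARS1, the seryl-tRNA synthetase that first charges that tRNA but is not specific to it, gave 4442, 8101 and 7807. PSTK, a kinase of the same path, was at 0.60 at 12 h, and at 0.584 after median centring, just under 1.5-fold. EEFSEC, SARS1 and PSTK were the 3 past 1.5-fold at 12 h, and EEFSEC, SARS1 and SECISBP2 at 24 h. SEPHS2, which makes the selenium donor, was at 0.29 and 0.46.

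Other selenoproteins were measured for 11 of 15 genes, with medians of 0.20 and 0.23, 7 higher at each time, and none past 1.5-fold higher. SELENOI, a phospholipid synthase, was at 0.49 and 0.49 (0.05 and 0.26 with transcript-specific probe sets), SELENOM, a protein of the reticulum, at 0.41 and 0.38, and SELENOW at -0.18 and -0.40. Superoxide dismutases and catalase, which remove superoxide and hydrogen peroxide without thiols, were higher for 4 of 4 measured genes, with medians of 0.15 and 0.40. Of all measured genes 50.2% were higher at 12 h and 48.8% at 24 h. CAT, catalase, gave 5951, 6938 and 7667 signal units, a 24 h difference of 0.37 that was 0.75 by the median of its probe sets. CCS, the copper chaperone of SOD1, was at 0.29 and 0.44, and SOD2, the mitochondrial enzyme, at 0.02 and 0.46.

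NRF2 and its partners were measured for 9 of 10 genes, with medians of 0.11 and 0.16 and 7 higher at each time. NFE2L2, which encodes NRF2, gave 6490, 7570 and 7041 signal units, and KEAP1 gave 2597, 2790 and 2905. SQSTM1, an autophagy receptor that binds KEAP1, gave 1795, 2460 and 3274, and NFE2L1, a related factor, 3678, 4646 and 5642. These were the 2 genes of the list past 1.5-fold at 24 h, at 0.87 and 0.62, the latter 0.45 when its probe sets were combined by their median. With transcript-specific probe sets SQSTM1 was at 0.78 at 12 h in place of 0.46. MAFG, a small MAF partner in DNA binding, was at 0.07 and 0.43.

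**Figure D4:**
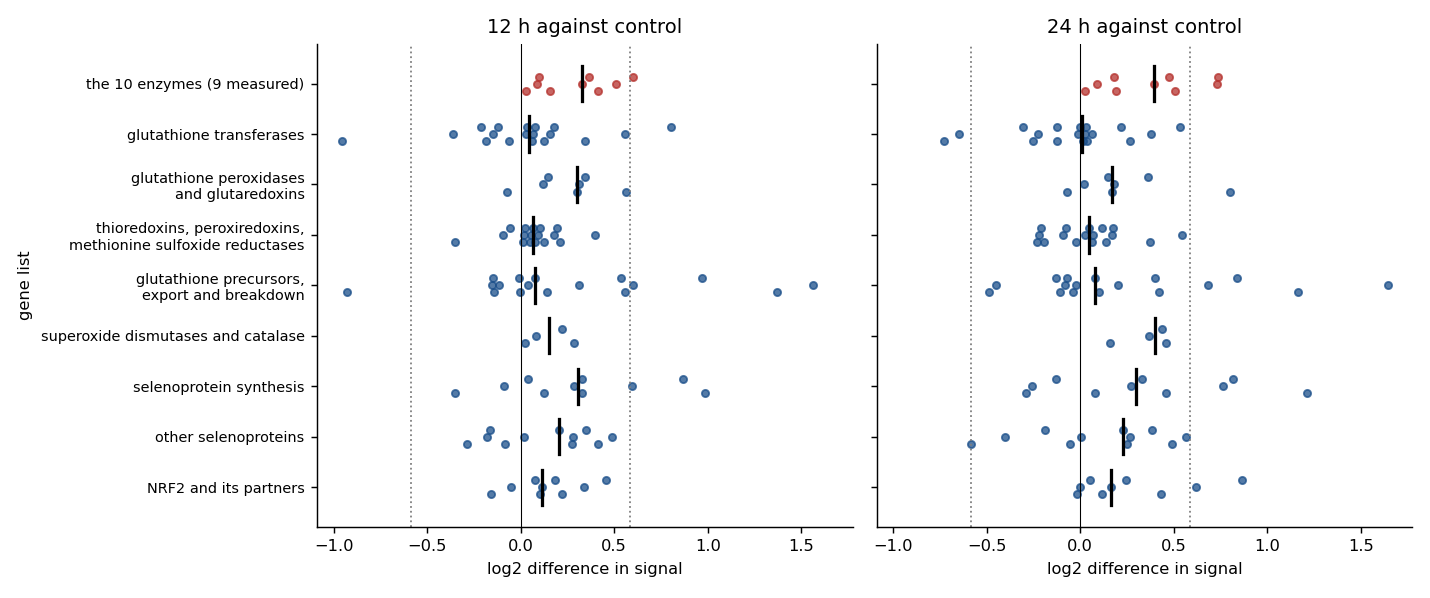
Log2 difference from the control array at 12 h (left) and 24 h (right) for each measured gene of the 9 enzymes (red) and of 8 related lists (blue), with the median of each list as a black bar and 1.5-fold as dotted lines. The medians of the enzymes are 0.33 and 0.40, and the widest spread is in the list of glutathione precursors, export and breakdown.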

How the data were processed

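The deposited values were linear signal intensity per probe set, which MAS5 produced, per the submitters' processing notes (settings and version: not given in the sources used here). Their trimmed mean (2% from each end) was 500.06 on every array, and no further scaling was applied. Of 54675 probe sets, 41097 had 1 gene in the platform annotation, 1801 several and 11777 none, and 41043 matched a current gene record. Probe sets of several genes were left out. A gene took its brightest single-gene probe set, signals under a floor of 61.4, the 50th percentile over all arrays, were raised to it, and a gene above it on any array was measured. Differences are log2 ratios of 2 arrays, and 1.5-fold was the call. The number of arrays limits the precision. The 10 genes and 8 lists (110 genes) were chosen with earlier results of these data known, so their pattern is not independent support. All 10 genes were named, with the 3 genes of each list that had the largest mean difference and the 3 nearest to SRXN1. The calculation was tested on simulated data, with changes of 2-fold or more planted alike in all probe sets of a gene. That test does not cover calls near 1.5-fold or genes whose probe sets disagree. Python 3.11.15, pandas 2.3.3 and limma 3.58.1 in R 4.3.3 were used. Alternatives covered scaling, the floor and the choice of probe set.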

Additional observations from a re-analysis of the deposited data

Results flagged for a closer look

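The dimmer probe set of GSR, 205770_at, had opposite signs at the treated times, at -0.80 at 12 h and 0.089 at 24 h against the control. With 1 array per time this difference was not tested.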

How the results depend on the processing

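No paired analysis was possible because each group held 1 array. Of 216 recomputed differences of the 9 enzymes, 207 stayed within the median disagreement between probe sets of a gene and 9 moved further, all of them for GCLC, GSR or TXN and all under another choice of probe set. Of these 216, 5 had the opposite sign. With its probe sets combined by their median GSR had -0.22 at 12 h, and the others lay between -0.04 and 0.07. The count of enzymes past 1.5-fold at 12 h was 0 with quantile normalization and 0 with cyclic loess instead of 1. With probe sets combined by their median it was 1 instead of 2 at 24 h, and 1 instead of 0 for 24 h against 12 h, where GSR reached 0.63. Under a 25th percentile floor or none, GPX2 joined GSR and SRXN1 past 1.5-fold at 24 h, on signals of 27.9 to 46.6. Over all genes the count past 1.5-fold at 12 h went from 804 to 380 under a 65th percentile floor and to 3616 under a 25th percentile floor, and at 24 h from 1112 to 641 and 3979. For 24 h against 12 h it went from 416 to 125 and 3265, and without a floor the counts were 5578, 5970 and 5352. Of 2211 recomputed differences of other named or listed genes, 80 moved further than that disagreement and none past 1.5-fold changed sign.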
